A study of Schizosaccharomyces pombe with 10 samples.

Results

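PolyA-selected RNA of fission yeast, Schizosaccharomyces pombe, was compared between a strain without the stress kinase Sty1 and wild type, both after 15 min in 1 mM H2O2. The comparison rests on 2 of the 10 libraries of the series, 1 from each strain, chosen by their labels. WT carries an intact sty1 gene and wild-type Atf1. STY carries a sty1 deletion and wild-type Atf1. Exponential cultures grew in minimal medium, and the untreated WT and STY libraries, which the comparison does not share, give the state before H2O2. The labels name neither clones nor separate cultures, and each strain and treatment has 1 library. No repeat exists, so no test was possible and every ratio compares 2 libraries, not 2 conditions. Of 7017 genes in the count table, 4983 had a mean of at least 10 CPM, counts scaled to the size of a library, over the 10 libraries and were compared.

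Sty1 is a mitogen-activated protein kinase (MAPK). Osmotic, oxidative and other stresses reach it through sensor kinases, the MAPK kinase kinases Wis4 and Win1 and the MAPK kinase Wis1. Active Sty1 phosphorylates Atf1, a bZIP transcription factor that pairs with Pcr1 on cyclic-AMP-response-element sites. A second bZIP factor, Pap1, gathers in the nucleus when H2O2 oxidises it through the peroxiredoxin Tpx1, and the sulfiredoxin Srx1 restores Tpx1 that excess peroxide has over-oxidised. Hsf1 is the factor that drives chaperone genes through heat shock elements.

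The targeted gene was read first. sty1 (SPAC24B11.06c) stood at 267 CPM in untreated WT, 305 in treated WT, 8.92 in untreated STY and 9.11 in treated STY. The 2859 counts of treated WT met 81 in treated STY, so few reads remained on the deleted gene, which overlaps the noncoding RNA SPNCRNA.622 on the other strand. The treated libraries held 9526891 counts in WT and 9670548 in STY, and the floor of detection, set at 3 counts where none was seen, was 0.320 CPM in WT and 0.337 CPM in STY. The 6 libraries of the other 3 strains are also labelled as sty1 deletion and carry HA-Atf1, in the wild-type form in HA, a phosphomimicking form in 10D and an unphosphorylatable form in 10M. They held sty1 at 101 to 130 CPM, between STY and WT, which their label does not account for. They entered every ratio through the filter and the scaling, and their own levels are given for hsp90 and for SPNCRNA.1094.

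Each ratio is the log2 ratio of scaled CPM, treated STY over treated WT, with a prior count of 2, so that negative values are lower in STY. Its 95% interval is an exact binomial interval on the 2 counts. It covers counting error only, and may understate that, since PCR copies of 1 molecule count as separate reads. A gene is called lower or higher where the ratio reached 2-fold and the interval excluded equal levels. Scaled CPM is a share of the polyA RNA of a culture, so fewer cells with a transcript and less of it in each cell cannot be told apart. The genes closest to the threshold were mfs3 at 1.00 just inside it, and ung1 and cox4, which round to 1.00, just outside.

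Loss of Sty1 went with a wide divergence of the treated transcriptomes. Treated STY had 976 genes lower (19.6% of those compared) and 558 higher (11.2%), together 1534 (30.8%). At 4-fold, 357 were lower (7.16%) and 104 higher (2.09%). The untreated strains differed less, with 182 genes lower in STY (3.65%), 86 higher (1.73%) and 268 in either direction (5.38%). The SD of the ratio over genes was 1.32 after H2O2 and 0.65 before, and the medians were -0.06 and -0.01. Across the 4983 genes the ratios after and before H2O2, which share no library but share genes and strains, had a Pearson r of 0.587 and a Spearman rho of 0.544.

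**Figure D1:**
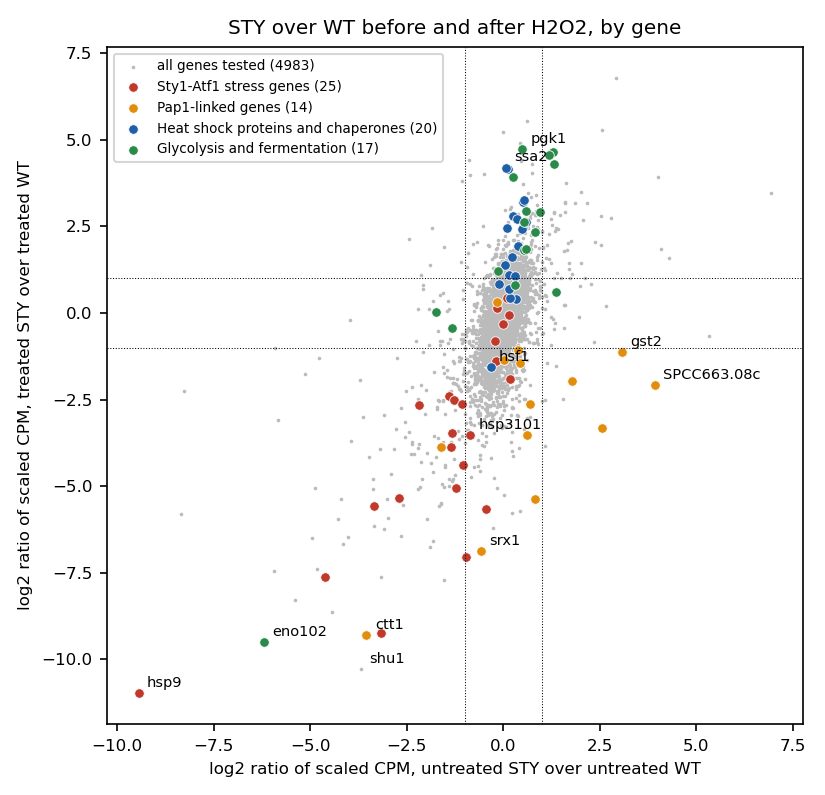
Log2 ratio of scaled CPM, STY over WT, after H2O2 (y axis) against before H2O2 (x axis), 1 point per gene, with dotted lines at 2-fold and 4 gene lists in colour (a gene in more than 1 list has the colour drawn last; eno102, at 0 counts in STY, is drawn at its prior-count value). Stress genes reach from the left-hand lower corner to genes level before H2O2, Pap1-linked genes such as gst2 and SPCC663.08c lie right of 0 and below it, and most chaperone and glycolytic genes lie above 0.

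Most of the lower genes were not called lower before H2O2, though as a group they leaned low. Of the 976, 144 (14.8%) were also lower before H2O2, beside 3.65% of all genes compared, 9 were higher before and 823 (84.3%) were neither. Their median ratio before H2O2 was -0.34, against -0.01 over all genes. Of the 558 higher genes, 53 (9.50%) were higher before as well, beside 1.73% of all genes, 7 were lower and 498 (89.2%) were neither. The median of the higher genes before H2O2 was 0.29. Seen from the untreated side, 144 of the 182 genes lower before H2O2 (79.1%) were lower after it, and 53 of the 86 higher ones (61.6%) were higher after it. The treated ratio minus the untreated ratio was at most -1, with its interval below 0, for 784 genes (15.7%), at least 1 for 413 (8.29%), and either for 1197 (24.0%).

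The responses of each strain, which share the treated libraries with the ratio itself, are given beside it. Among the 976 lower genes, 380 were at least 2-fold up with H2O2 in WT, 581 moved by less and 15 were down, whereas in STY 14 were up, 741 moved by less and 221 were down. The largest combinations were 401 genes that moved less than 2-fold in both strains, 337 up in WT and level in STY, and 179 level in WT and down in STY. Among the 558 higher genes, 328 moved less than 2-fold in both strains and 178 were down in WT and level in STY. These classes were not counted over all genes, so they only describe the called ones. The median response in WT and STY was 0.78 and -0.54 for the lower genes and -0.79 and 0.32 for the higher genes. Over all genes compared it was -0.07 and -0.03. The lower genes took 36.2% of all counts in treated WT and 7.21% in treated STY. The higher genes took 9.95% in treated WT and 33.0% in treated STY. The direction of both differences follows from the choice of these genes by the same 2 libraries, and only their size is described.

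The promoters of 3 genes with extreme ratios are given first, because the matches searched later sit in such windows. They are RefSeq sequences of the ASM294v3 build. The count table gives no coordinates, and its build is not given in the sources used here. Each is the 200 bases before the annotated transcript start, 5′ to 3′ on the gene's strand. Capitals mark a TGACGT core, the centre of the site that Atf1 and Pcr1 bind, or a GAANNTTC pair of facing heat shock units. They belong to hsp9 and ctt1, the lowest ratios of the Sty1-Atf1 stress list with a printable window, and hsp90, one of the 2 highest of the chaperone list.
hsp9, chrI:5320677-5320876, minus strand: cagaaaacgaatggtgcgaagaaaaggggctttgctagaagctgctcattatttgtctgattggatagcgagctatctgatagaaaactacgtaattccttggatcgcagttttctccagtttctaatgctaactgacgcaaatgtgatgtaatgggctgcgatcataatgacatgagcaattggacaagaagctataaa
ctt1, chrIII:58834-59033, minus strand: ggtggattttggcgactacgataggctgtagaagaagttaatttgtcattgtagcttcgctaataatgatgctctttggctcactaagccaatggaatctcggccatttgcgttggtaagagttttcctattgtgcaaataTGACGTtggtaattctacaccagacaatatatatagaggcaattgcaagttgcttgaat
hsp90, chrI:3891140-3891339, minus strand: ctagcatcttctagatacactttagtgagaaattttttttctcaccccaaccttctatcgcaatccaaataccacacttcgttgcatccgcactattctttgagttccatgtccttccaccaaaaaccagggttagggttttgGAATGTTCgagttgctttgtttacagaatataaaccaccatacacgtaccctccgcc

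The first base of the ctt1 match lies 59 bases before the start and that of the hsp90 match 57. The hsp9 window held none of the letters searched, which says only that these letters are not in it. hsp9 overlaps SPNCRNA.1071 on the same strand, so that its counts could be divided between them.

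The Sty1-Atf1 stress list was mostly low and held the lowest ratio of all genes, that of hsp9. Of its 25 members compared, 20 were lower and 0 higher, with a median of -3.46 against -0.06 over all genes, and 14 were already lower before H2O2, where the median was -1.07. The list collects genes long described as Sty1 targets, so its direction is not a separate finding. The gene hsp9, for a small membrane-associated heat shock protein, stood at 1712 CPM in untreated WT, 9163 in treated WT, 2.31 in untreated STY and 4.39 in treated STY. Its ratio of -10.98 (95% interval -11.52 to -10.58) was the lowest of the 4983, and the untreated ratio was already -9.45. The catalase gene ctt1 went from 124 to 15866 CPM in WT and from 10.5 to 25.0 CPM in STY. Its ratio was -9.30 (-9.51 to -9.12) after H2O2 and -3.55 before.

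Other members of the list split by their state before H2O2. Some were low from the start. The levels of gpx1, the glutathione peroxidase gene, were 326 and 2431 CPM in WT before and after H2O2 and 32.0 and 51.3 in STY, a treated ratio of -5.56 (-5.70 to -5.43) beside -3.34. rds1 read 583 and 5081 CPM in WT and 23.6 and 25.4 in STY, a ratio of -7.63 beside -4.62. Others were nearer to WT before H2O2. pyp2, for a tyrosine phosphatase that acts on Sty1, read 16.5 and 321 CPM in WT and 12.1 and 6.19 in STY, a ratio of -5.66 (-6.11 to -5.31) beside -0.44. cta3, for a calcium-transporting ATPase, read 14.4 and 303 CPM in WT and 7.24 and 2.14 in STY, a ratio of -7.05 (-7.88 to -6.50) beside -0.98. In each of these 4 genes the treated WT library was the highest of the 4 and both STY libraries lay below both WT libraries. The 5 members that were not called were tpp1 at -0.80, idn1 at -0.31, tms1 at -0.06, grx2 at 0.15 and gcd1 at 0.44. A further member, fbp1, did not pass the filter on low values.

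**Figure D2:**
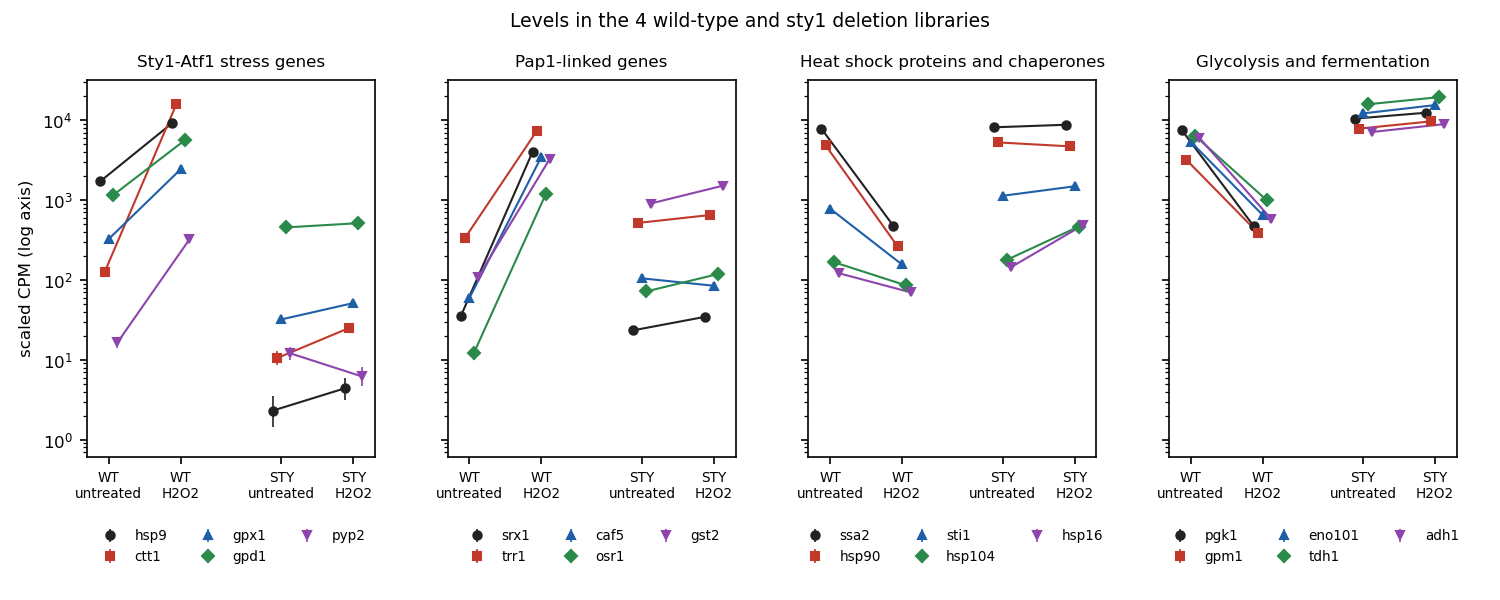
Scaled CPM on a log axis in untreated and treated WT and STY for 5 genes from each of 4 lists; bars are 95% Poisson intervals of the single counts and are mostly smaller than the symbols, and lines join the 2 libraries of a strain. Stress and Pap1-linked genes are far higher after H2O2 in WT and change less in STY, where gst2 and osr1 start above untreated WT, while chaperone and glycolytic genes drop in WT and stay level or climb in STY.

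TGACGT was present in the promoter windows of 8 of the 25 stress genes compared (32.0%). The windows ran from 250 bases before to 50 bases after the annotated start, were read on both strands, and existed for 4678 coding genes, of which 271 (5.79%) held the motif. The sites of these genes follow with 10 bases on each side and the motif in capitals, on the strand that reads TGACGT. That of ctt1 lies in the promoter already given.
rds1, chrI:1667625-1667650, minus strand: ggtctcagctTGACGTgtgacttggt
ish1, chrII:2518773-2518798, plus strand: ataatctaacTGACGTaaactccctc
atf1, chrII:1546155-1546180, plus strand: agtgatgcaaTGACGTcatctgtttg
srk1, chrIII:1301890-1301915, minus strand: ttgcctacttTGACGTccttcgttaa
srk1, chrIII:1301871-1301896, plus strand: atgatgccaaTGACGTacgttaacga
srk1, chrIII:1301813-1301838, minus strand: acgatggtggTGACGTtgcgcatcca
gpd1, chrII:4035482-4035507, minus strand: ccgtaccaaaTGACGTaaaaacacta
gpd1, chrII:4035433-4035458, plus strand: gtcaggcatgTGACGTttggtatcac
ntp1, chrII:206502-206527, minus strand: cgttactcaaTGACGTagtctacctg
idn1, chrI:2276806-2276831, minus strand: taagttggatTGACGTttagaaatcg

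srk1 held 3 matches and gpd1 2. The atf1 site is a palindrome, read as TGACGT on either strand, so that its 2 matches overlap. idn1 is printed because it held the motif and had a ratio near 0, at -0.31. rds1 had a site whose far end lies 104 bases before its start, in a window that overlaps the annotated untranslated region of a neighbour.

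Over all coding genes the share of promoters with TGACGT grew with the ratio's distance below 0. It was 4.18% among genes neither lower nor higher, 7.06% among those 2- to 4-fold lower, 16.2% at 4- to 16-fold and 33.8%, or 25 of 74, at 16-fold and beyond. The lower genes as a whole held it in 107 of 908 promoters (11.8%) and the higher genes in 27 of 494 (5.47%). Within the lower genes, those up in WT and level in STY held it in 19.6% of 296 promoters, those level in WT and down in STY in 6.82% of 176, and those level in both in 8.14% of 381. A match is a description of the sequence, and no factor's binding was measured.

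**Figure D3:**
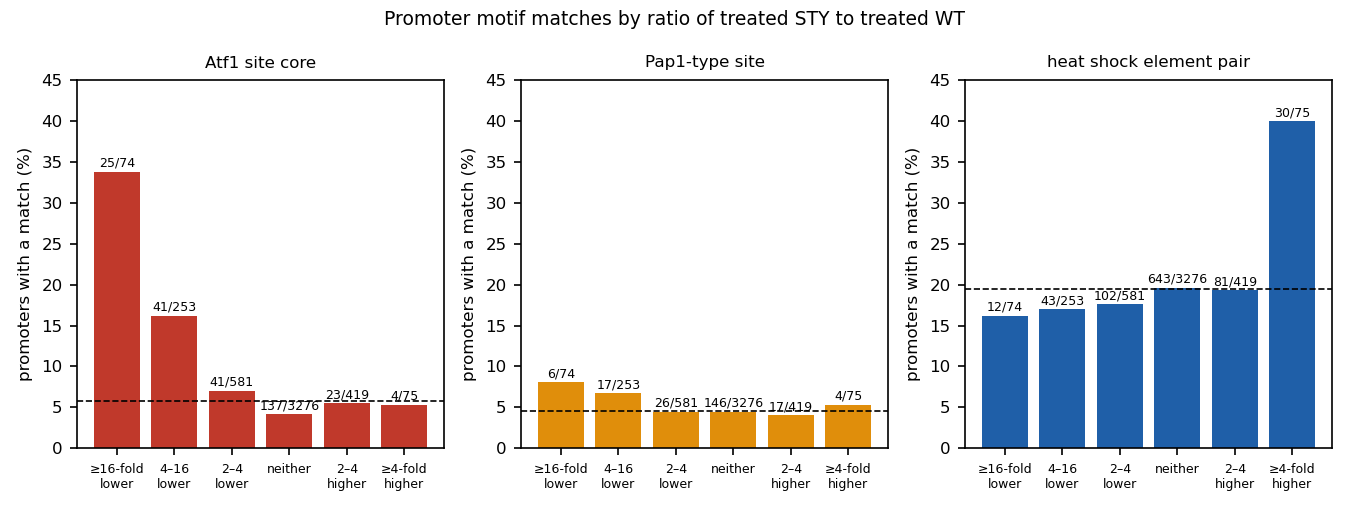
Percent of 300-base promoter windows with TGACGT (left), TTAGTCA (centre) and GAANNTTC or TTCNNGAA (right) by class of the ratio of treated STY to treated WT, with matches over promoters above each bar and a dashed line at the share of all 4678 windows. TGACGT rises to 33.8% in the genes at least 16-fold lower, and the heat shock pair stands at 40.0% in those at least 4-fold higher and at 16.2% to 19.6% in the other classes.

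Genes of the kinase pathway itself were mostly lower. Of the 9 genes of the Sty1 cascade compared, 6 were lower and 0 higher, with a median of -1.68, and 1 of those 6 is the deleted sty1. Over all genes compared, 19.6% were lower and 11.2% higher. The sensor kinase gene mak1 read 146 and 344.0 CPM in WT before and after H2O2 and 92.9 and 49.2 in STY, a ratio of -2.80 (-2.95 to -2.66). mpr1, for the phosphotransfer protein below the sensors, read 84.7 and 296 CPM in WT and 32.7 and 22.0 in STY, a ratio of -3.74 (-3.96 to -3.54) beside -1.37 before H2O2. Both were at their highest in treated WT. The MAPK kinase kinase genes wis4 and win1 had ratios of -2.06 and -1.68, and mcs4, for their response regulator, -1.44. wis1, for the kinase that phosphorylates Sty1, was level at 0.09 (-0.16 to 0.33), and mak2 (-0.74) and mak3 (-0.86) were not called.

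The genes that act on Sty1 or below it went the same way. Of 9 phosphatase and downstream kinase genes, 6 were lower and 0 higher, with a median of -1.89. Among them, pyp2 and srk1 are stress list members too, so the lists are not separate evidence. pyp1, for the main tyrosine phosphatase of Sty1, read 54.7 and 106 CPM in WT before and after H2O2 and 7.14 and 4.05 in STY, a ratio of -4.66 (-5.23 to -4.23) beside -2.91. srk1, for a kinase that Sty1 binds and phosphorylates, read 74.0 and 507 CPM in WT and 28.8 and 34.5 in STY, a ratio of -3.87 (-4.05 to -3.71). ptc1, for a type 2C phosphatase, had a ratio of -3.74. In pyp1, srk1 and ptc1 both STY libraries lay below both WT libraries. cmk2 and cmk1, for calmodulin-dependent kinases, had ratios of -1.89 and -1.20, while ptc2 (-0.69), ptc3 (0.00) and ptc4 (-0.02) were not called.

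The factor at the end of the pathway was itself low. atf1 (SPBC29B5.01) read 143 CPM in untreated WT, 643 in treated WT, 69.3 in untreated STY and 30.4 in treated STY, so that it went up in one strain and down in the other. Its ratio was -4.40 (-4.58 to -4.23) after H2O2 and -1.04 before. pcr1, for its partner, read 77.8 and 472 CPM in WT and 29.2 and 16.9 in STY, a ratio of -4.79 (-5.05 to -4.57). The list of stress transcription factors and RNA-binding factors held 10 lower and 0 higher genes of 12 compared, with a median of -1.53.

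Not every member of that list was more abundant after H2O2 in WT. csx1, for an RNA-binding protein that stabilises atf1 mRNA, read 70.9 and 69.9 CPM in WT before and after H2O2 and 54.7 and 16.1 in STY, a ratio of -2.11 (-2.39 to -1.86). There WT was level and treated STY alone was low. hsr1, for a zinc finger factor, had a ratio of -3.86, phx1 -2.51, hsf1 -1.57, rst2 -1.49, prr1 -1.40, cip2 -1.30 and cip1 -1.25. pap1 read 238 and 412 CPM in WT and 304 and 271 in STY, and its ratio of -0.60 was not called, as was that of rnc1 at -0.75.

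Genes linked to Pap1 had a different history. Of 14 compared, 13 were lower and 0 higher after H2O2, with a median of -2.36. Before H2O2, 2 were lower and 4 higher, and the median was 0.52. The sulfiredoxin gene srx1 (SPBC106.02c) read 35.1 CPM in untreated WT, 4044 in treated WT, 23.4 in untreated STY and 34.5 in treated STY. It was thus near the same level in the other three libraries, and its ratio was -6.87 (-7.04 to -6.71) beside -0.58 before H2O2. The gene overlaps mph1 on the opposite strand. caf5, for a spermine transporter, read 59.3 and 3473 CPM in WT and 105 and 84.5 in STY, a ratio of -5.36 (-5.47 to -5.26) beside 0.82. trr1, for thioredoxin reductase, read 337 and 7404 CPM in WT and 516 and 648 in STY, a ratio of -3.51 beside 0.62. For caf5 and trr1 both STY libraries lay above untreated WT and far below treated WT.

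Several of these genes lay on opposite sides of WT before and after H2O2. gst2, for a glutathione S-transferase, read 108 CPM in untreated WT, 3305 in treated WT, 904 in untreated STY and 1507 in treated STY. Its ratio was 3.06 before H2O2 and -1.13 (-1.16 to -1.10) after. osr1, for a dehydrogenase, read 12.05 and 1176 CPM in WT and 71.8 and 119 in STY, and its ratio went from 2.56 to -3.31. bfr1, for an efflux transporter of the plasma membrane, read 159.9 and 1781 CPM in WT and 547 and 455 in STY, and its ratio went from 1.77 to -1.97. The STY libraries of all 3 genes sat between untreated and treated WT. hmt2, for a sulfide oxidoreductase, was not called at 0.30.

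TTAGTCA, a Pap1-type site read on both strands, was in 5 of the 14 windows (35.7%) and in 4.62% of all 4678. Its share was 8.11% among the genes at least 16-fold lower and 4.46% among those neither lower nor higher. The 5 sites are shown with 10 bases on each side and the motif in capitals.
caf5, chrII:3166468-3166494, minus strand: tattgattgaTTAGTCAattatgtgag
obr1, chrI:2095130-2095156, minus strand: ttgaataggaTTAGTCAgaaatggttc
bfr1, chrIII:715547-715573, minus strand: tcgagttgtcTTAGTCAtactattata
pmd1, chrIII:1634991-1635017, plus strand: tacttcattcTTAGTCAtctcataaaa
gst2, chrIII:2296196-2296222, plus strand: gtaataattgTTAGTCAgcacccattt

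Enzymes that remove peroxide and superoxide were mostly lower or not called. Of 9 compared, 5 were lower and 1 higher, with a median of -1.37. Over all genes compared, 19.6% were lower and 11.2% higher. Besides ctt1, gpx1 and srx1, the lower ones were the peroxiredoxin gene tpx1 and the superoxide dismutase gene sod1. tpx1 read 897 and 9301 CPM in WT before and after H2O2 and 2318 and 3210.1 in STY, a ratio of -1.53 (-1.55 to -1.52) beside 1.37 before H2O2, and it overlaps SPNCRNA.1258 and SPNCRNA.1259. sod1 read 1270.1 and 3431.5 CPM in WT and 1274 and 1327 in STY, a ratio of -1.37 beside 0.00, so that the strains differed after H2O2 alone. pmp20, for a peroxiredoxin-like protein, was the higher one at 1.07 but was not called with total counts, while bcp1 (-0.73), sod2 (-0.46) and ccs1 (0.47) were not called. Of 16 thioredoxin, glutaredoxin and glutathione genes, 5 were lower and 0 higher, with a median of -0.67. They were trr1, gst3 (-2.89), mxr2 (-1.68), gst2 and trx1 (-1.07). The genes of glutathione synthesis were not called, with gcs1 at -0.56 and gsa1 at 0.38.

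Trehalose and glycerol genes were lower or level. Of 10 compared, 5 were lower and 0 higher, with a median of -1.59, and several also belong to the stress list. Before H2O2, 5 were lower and 0 higher, with a median of -0.90. Over all genes compared, 19.6% were lower after H2O2 and 3.65% before. gut2, for the mitochondrial glycerol-3-phosphate dehydrogenase, read 37.6 and 445 CPM in WT before and after H2O2 and 4.62 and 7.20 in STY, a ratio of -5.92 (-6.33 to -5.59) beside -2.98. gpd1, for the glycerol-3-phosphate dehydrogenase of glycerol synthesis, read 1151 and 5641 CPM in WT and 454 and 513 in STY, a ratio of -3.46 (-3.50 to -3.42). The trehalase gene ntp1 and the trehalose-6-phosphate synthase gene tps1 had ratios of -2.50 and -2.39. The second glycerol-3-phosphate dehydrogenase gene, gpd2, was level at 0.02.

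Chaperone genes went the opposite way. Of 20 heat shock and chaperone genes compared, 15 were higher and 1 lower, with a median of 2.18, and before H2O2 0 were higher and 0 lower, with a median of 0.24. ssa2, for an Hsp70 chaperone, read 7825 CPM in untreated WT, 477 in treated WT, 8135 in untreated STY and 8754 in treated STY. Treated WT was low and the other three libraries were close, which gave a ratio of 4.20 (4.16 to 4.24) beside 0.06. hsp90 read 4825 and 263 CPM in WT and 5261 and 4697 in STY, a ratio of 4.16 (4.10 to 4.22) beside 0.12. In the treated libraries of the other 3 strains hsp90 stood at 431 CPM in 10D, 6491 in HA and 6691 in 10M. The co-chaperone gene sti1 read 781 and 156 CPM in WT and 1129 and 1485 in STY, a ratio of 3.25 (3.17 to 3.33).

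A few chaperone genes went up in STY as well as down in WT. hsp16, for a small heat shock protein, read 121 and 69.9 CPM in WT before and after H2O2 and 145 and 486 in STY, a ratio of 2.80 (2.68 to 2.92). hsp104, for the disaggregase, read 166 and 85.2 CPM in WT and 178 and 466 in STY, a ratio of 2.45 (2.34 to 2.56). Treated STY was the highest library for both. The 4 genes not called were psi1 at 0.71, bip1 at 0.85, mcp60 at 0.43 and sks2 at 0.41. The lower member was hsf1 itself, which read 185 and 332 CPM in WT and 147 and 111 in STY, a ratio of -1.57. The cyclophilin gene wis2, outside the list, read 625 and 32.4 CPM in WT and 950.0 and 1528 in STY, and its ratio of 5.56 (5.40 to 5.73) was the second highest of all genes.

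GAANNTTC or TTCNNGAA, the 2 arrangements of facing heat shock units, was in 15 of the 20 windows of the list (75.0%) and in 19.5% of all windows. Both letter patterns read the same on either strand. Among coding genes at least 4-fold higher, 30 of 75 held it (40.0%), against 19.3% of those 2- to 4-fold higher and 17.3% of the lower genes. Higher genes that were down in WT and level in STY held it in 31.2% of 157 windows. Both sets include members of the chaperone list, such as ssa2 and hsp90, so their shares are not separate from that of the list. The sites of 4 chaperone genes with high ratios are shown with 10 bases on each side and the match in capitals. Those of ssa2 overlap each other, in a window annotated as a neighbour's untranslated region.
ssa2, chrIII:2056979-2057006, plus strand: tttgggaaacTTCGAGAAccgtagccta
ssa2, chrIII:2056974-2057001, plus strand: agggttttggGAAACTTCgagaaccgta
sti1, chrIII:1263651-1263678, plus strand: ccagaataacGAAGATTCttttgtttaa
hsp10, chrIII:1195882-1195909, plus strand: agatcatctgGAAAGTTCtaccaaaagt
hsp16, chrII:2661068-2661095, plus strand: acgatgactcGAATTTTCtcgtaaacgt

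Glycolysis and fermentation genes were also mostly higher, at very high read counts, but unlike the chaperones some were called before H2O2. Of 17 compared, 12 were higher and 1 lower, with a median of 2.34. Before H2O2, 4 were higher and 3 lower, with a median of 0.53. The phosphoglycerate kinase gene pgk1 read 7441 CPM in untreated WT, 468.5 in treated WT, 10443 in untreated STY and 12402 in treated STY, a ratio of 4.73 (4.68 to 4.77). The phosphoglycerate mutase gene gpm1 read 3194 and 386 CPM in WT and 7831 and 9646 in STY, a ratio of 4.64 beside 1.29. The alcohol dehydrogenase gene adh1 read 6015 and 581 CPM in WT and 7101 and 8905 in STY, a ratio of 3.94 beside 0.24. In these 3 genes treated WT was the lowest and treated STY the highest library. The list also held eno101 at 4.57 beside 1.17 before H2O2 and tdh1 at 4.29 beside 1.30. pyk1 was at 2.94 and fba1 at 2.34, whereas the phosphofructokinase gene pfk1 was not called at 0.80. The second enolase gene, eno102, was the exception. It had 113 and 993 counts in untreated and treated WT and 0 in both STY libraries, which makes it at least 314-fold lower after H2O2 (3 counts allowed in treated STY). eno102 overlaps SPNCRNA.1302 on the opposite strand. In the untreated and treated STY libraries, where eno102 had 0 counts, eno101 had 115789 and 137254. Whether the counting divided reads between the enolase genes was not tested.

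Sugar transport and glucose signalling split by gene. Of 14 compared, 9 were lower and 1 higher, with a median of -1.38, beside 19.6% lower and 11.2% higher of all genes. The hexose transporter gene ght2 read 258 and 1752 CPM in WT before and after H2O2 and 171 and 73.4 in STY, a ratio of -4.57 (-4.69 to -4.46). ght5, for the high-affinity glucose transporter, read 368 and 22.8 CPM in WT and 378 and 182 in STY, a ratio of 2.98 (2.78 to 3.20). The pair moved in opposite directions in WT, and both went down in STY. Genes of the cyclic-AMP kinase were lower, with pka1 at -2.64, its regulatory subunit gene cgs1 at -4.21 and the phosphodiesterase gene cgs2 at -3.46. inv1, for invertase, was at -3.44 and scr1, for a repressor of glucose-regulated genes, at -2.65.

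Metal and heme uptake held one of the lowest ratios of all. shu1, for a heme uptake protein at the cell surface, read 4.42 and 601 CPM in WT before and after H2O2 and 0.210 and 0.337 in STY, where 3 counts were left after H2O2. Its ratio was -10.28 (-13.08 to -9.25). Over the iron, heme and copper list 8 genes were lower and 3 higher of 17, with a median of -0.91. With total counts 9 were lower and 2 higher. Over all genes compared, 19.6% were lower and 11.2% higher, and the count of higher genes lies near that share. frp1, for a ferric reductase, was at -3.85, and fip1 and fio1, for the iron permease and its oxidase, at -2.56 and -1.64. The copper transporter genes ctr4 and ctr5 were higher at 2.74 and 1.02, the latter under 2-fold with total counts, and they were higher before H2O2 too, at 2.79 and 1.72.

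Nutrient genes followed no single direction. Of 14 sulfate and methionine genes, 5 were higher and 1 lower, with a median of 0.65. sua1, for sulfate adenylyltransferase, read 1116 and 209 CPM in WT before and after H2O2 and 2012 and 2224 in STY, a ratio of 3.41 (3.35 to 3.48). met17, for a sulfhydrylase, read 734 and 78.3 CPM in WT and 821 and 629 in STY, and the transporter gene sul1 was lower at -1.37. Of 26 genes of arginine, lysine, histidine and leucine synthesis, 7 were lower and 3 higher, with a median of -0.24, and 1 was higher with total counts. These counts lie near the shares over all genes, 19.6% lower and 11.2% higher. lys4, for homocitrate synthase, read 1568 and 7316 CPM in WT and 1610.3 and 1702 in STY, a ratio of -2.10 (-2.13 to -2.08) beside 0.04. Of 11 ammonium and nitrogen-starvation genes, 7 were lower and 1 higher, with a median of -1.30. Before H2O2, 4 of them were lower and 0 higher, with a median of -0.73. The protease gene isp6 was at -3.40, the ammonium transporter genes amt3 and amt1 at -2.54 and -2.24, and gln1, for glutamine synthetase, was the higher one at 2.90. Phosphate genes held 3 lower and 0 higher of 6, with the phosphatase gene pho8 at -3.77. Before H2O2, 4 of the 6 were lower, and their median was -1.61 then and -0.97 after. Thiamine-repressible genes held 1 lower and 3 higher of 9, with nmt1 at 2.06, thi2 at 1.66 and the transporter gene thi9 at -1.81.

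Mating genes were low in STY before H2O2 was added. Of 19 compared, 11 were lower and 0 higher after H2O2, with a median of -1.30, and 12 were lower before, with a median of -1.54. Over all genes compared, 19.6% were lower after H2O2 and 3.65% before. ste11, for the main transcription factor of mating, read 59.0 and 14.0 CPM in WT before and after H2O2 and 10.1 and 2.81 in STY. Both strains had less after H2O2 and STY had less at either time, with ratios of -2.26 (-2.99 to -1.69) and -2.53. map1, for a mating-type transcription factor, had a ratio of -3.02, and byr1, for the pheromone MAPK kinase, ratios of -2.15 after and -2.35 before.

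Cell cycle lists had medians of the treated ratio near 0, with single genes far out. For scale, 19.6% of all genes compared were lower and 11.2% higher. The 17 G1-S genes held 6 lower and 2 higher with a median of -0.20, beside 0.41 before H2O2. Their treated minus untreated ratio was called lower for 7 and higher for 0, beside 15.7% and 8.29% of all genes. Their median response to H2O2 was -0.63 in WT and -1.16 in STY. Among them were res2 at -2.32 and rep2 at 1.95, for a subunit and an activator of the G1-S factor MBF. The 16 cell separation genes held 1 lower and 1 higher with a median of -0.10. Of 13 mitotic regulators, 5 were lower and 1 higher, with a median of -0.30. Their median response was -0.46 in WT and -1.32 in STY, and that of the cell separation genes -1.08 and -1.02. wee1, for the kinase that delays mitosis, read 111 and 140.4 CPM in WT before and after H2O2 and 60.0 and 12.9 in STY, a ratio of -3.43 (-3.73 to -3.16). The forkhead factor gene sep1 was at -2.88, the securin gene cut2 at -1.91 and cdc25, for the phosphatase opposing Wee1, at -1.82. Core histone genes held 7 lower and 0 higher of 9, with a median of -1.32. hht3 and hhf3, a divergent pair for H3 and H4, were lowest at -2.42 and -2.28, and hhf2 was level at 0.03. Histone copies share near-identical sequence, so their separate values are uncertain.

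**Figure D4:**
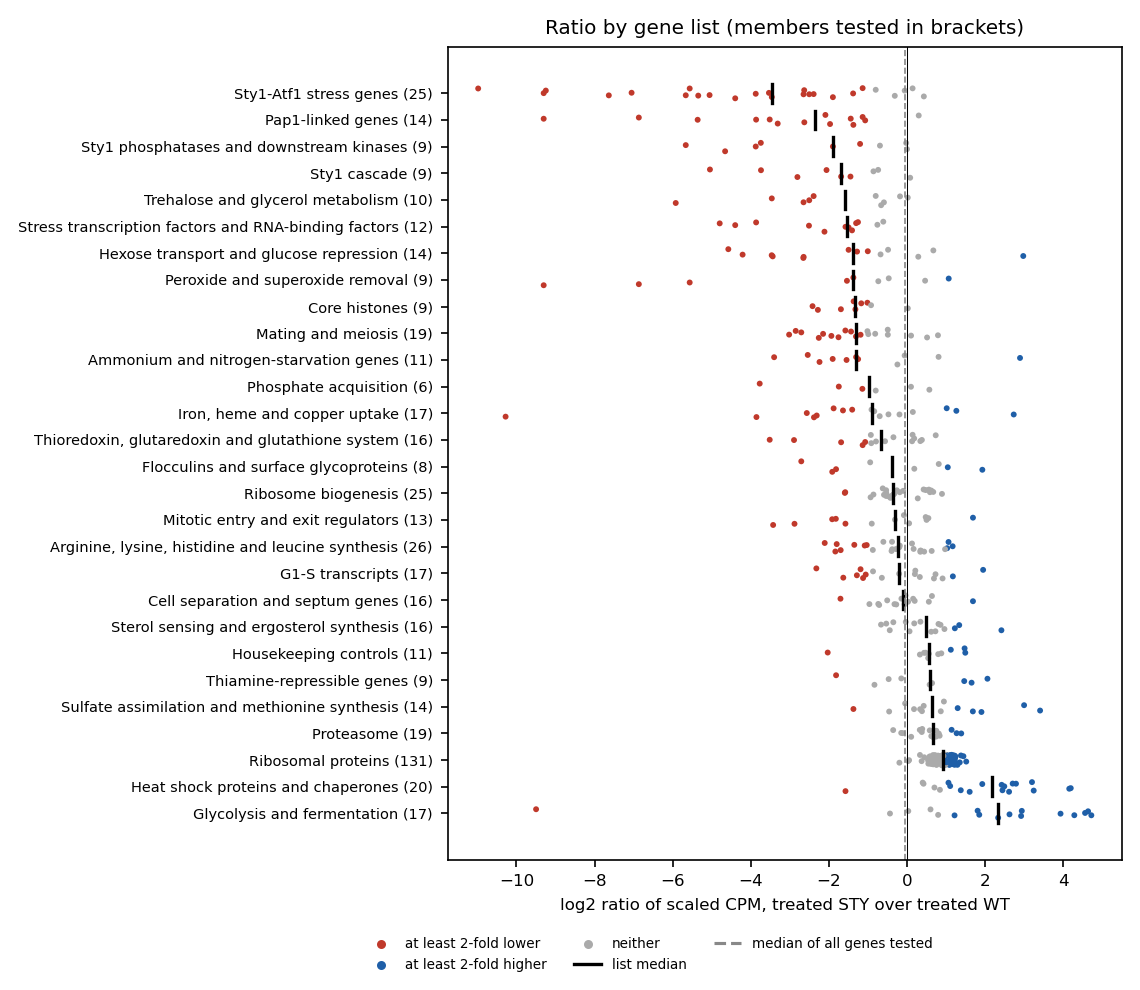
Log2 ratio of scaled CPM, treated STY over treated WT, for each member compared of 28 gene lists (the Tf2 retrotransposons, with 2 copies compared and a median of -4.11, are left out), ordered by list median (black bar), with called genes in red (lower) and blue (higher), and a dashed line at the median of all genes; eno102 is drawn at its prior-count value. Of the lists drawn, the stress list lies lowest with a median of -3.46 and glycolysis highest with 2.34.

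Ribosomal protein genes were slightly higher as a body. Of 131 compared, 130 had a ratio above 0, with a median of 0.91, and 45 were higher and 0 lower. That count turned on the scaling, at 58 with factors from the 2 treated libraries alone and 27 with total counts. Ribosome biogenesis genes held 2 lower and 0 higher of 25, and proteasome genes 0 lower and 3 higher of 19. Shares over all genes compared were 19.6% lower and 11.2% higher. Among 11 housekeeping genes 3 were higher and 1 lower, with a median of 0.56. act1 was at 0.44, and tbp1, for the TATA-binding protein, was the lower one at -2.03.

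Gene length moved with the ratio. By RefSeq annotated length, 11.5% of coding genes under 1 kb were lower and 20.5% higher, whereas over 3 kb 32.3% were lower and 2.80% higher. The median ratio ran from 0.53 to -0.59 over those bins. Across 4678 coding genes length had a Spearman rho of -0.36 with the treated ratio, -0.25 with the untreated ratio, 0.13 with the WT response and -0.42 with the STY response. With the median of each length bin taken away, the ribosomal protein median of 0.91 became 0.40 and 1 of 131 genes stayed at least 2-fold higher. The medians became -3.28 for the stress list, -2.76 for the Pap1-linked list, 2.23 for the chaperones and 2.06 for glycolysis. Medians nearer to 0 followed for the Sty1 cascade, from -1.68 to -1.17, for hexose transport and glucose repression, from -1.38 to -0.79, and for iron, heme and copper uptake, from -0.91 to -0.57. The genes at least 2-fold lower went from 10 to 6 of 12 in the stress factor list and from 9 to 6 of 14 in the hexose list. The G1-S median turned from -0.20 to 0.05 and the cell separation median from -0.10 to 0.20. What lies behind the link with length was not tested.

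**Figure D5:**
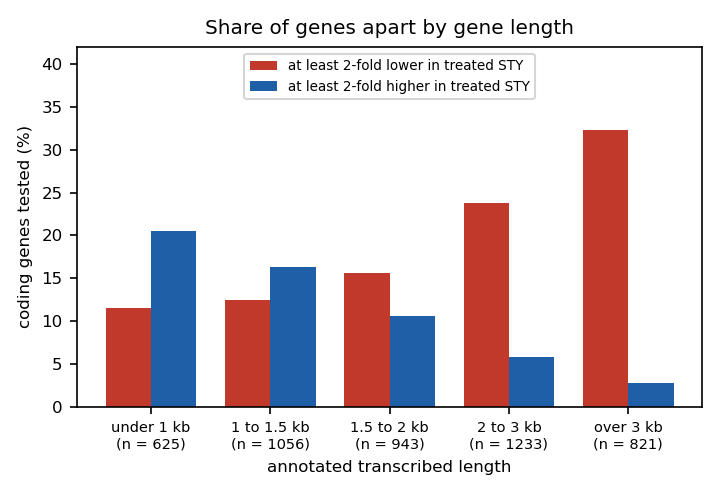
Percent of coding genes at least 2-fold lower (red) and at least 2-fold higher (blue) in treated STY than in treated WT, by annotated length, with the number of genes under each bin. The red bars go from 11.5% to 32.3% and the blue bars from 20.5% to 2.80% from the shortest to the longest bin.

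The remaining lowest ratios belonged mostly to genes far more abundant in treated than in untreated WT. ddr48 read 53.6 and 3371 CPM in WT before and after H2O2 and 18.5 and 15.9 in STY, a ratio of -7.72 (-7.98 to -7.49), and it overlaps avl9 on the opposite strand. lsd90, a stress list member, read 97.6 and 3646 CPM in WT and 10.7 and 5.85 in STY, a ratio of -9.25. SPCC794.04c, annotated as a transporter, read 72.7 and 1089 CPM in WT and 1.57 and 3.37 in STY, a ratio of -8.27. All 3 were lower before H2O2 too. ecl1, named for the extension of chronological lifespan, was level before, at 0.22. It read 189 and 5452 CPM in WT and 219.7 and 98.5 in STY, a ratio of -5.79 (-5.89 to -5.69). The melibiase gene mel1 had 548 counts in treated WT and 0 in treated STY, at least 173-fold lower (3 counts allowed). SPBC725.03, annotated as a pyridoxamine phosphate oxidase, read 23.4 and 324 CPM in WT and 19.5 and 4.27 in STY, a ratio of -6.20. At the other end SPAC23H4.05c had 2 counts in treated WT and 354 in treated STY, a ratio of 6.79 (5.68 to 10.59).

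Further genes at the ends of the order have little or no described role. SPACUNK4.17, annotated as an NAD-binding dehydrogenase, read 75.4 and 1462 CPM in WT before and after H2O2 and 8.29 and 7.31 in STY, a ratio of -7.62 (-8.02 to -7.29). SPAPJ695.02, of no known function, read 67.0 and 64.9 CPM in WT and 0.945 and 0.225 in STY, a ratio of -7.45 (-11.22 to -6.31), so that it was level in WT and low in STY at either time. The WT libraries carried SPAPJ695.02 past the filter on low values, so nothing is read from that direction. SPBPB2B2.05, annotated as a glutamine amidotransferase, read 18.3 and 0.534 CPM in WT and 18.1 and 25.3 in STY, a ratio of 5.22 (4.32 to 7.20). SPBC460.05, which has no RefSeq match, read 174 and 4.06 CPM in WT and 94.4 and 89.4 in STY, a ratio of 4.41 (3.99 to 4.97). Treated WT was the low library for both.

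A few genes are named for the distance between their untreated and treated ratios. SPCC576.17c, annotated as a pyridoxine transporter, read 2.45 and 115 CPM in WT before and after H2O2 and 3.36 and 2.02 in STY, and its ratio went from 0.43 to -5.73. Its high level in treated WT carried it past the filter on low values, so nothing is read from that direction. The pseudogene SPCC18B5.02c read 6.02 and 522 CPM in WT and 247 and 332 in STY, and its ratio went from 5.33 to -0.65, where it was not called. The last pair, both tied to mating or meiosis, was high in untreated WT and low in the other three WT and STY libraries. mfm1, for a precursor of the M-factor pheromone, read 47.1 and 1.28 CPM in WT and 0.630 and 0.562 in STY, and its treated ratio of -1.01 (-3.05 to 0.42) was not called. The noncoding RNA omt3 had 482 and 35 counts in WT and 0 and 6 in STY, with a treated ratio of -2.24 (-4.01 to -1.20).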

How the data were processed

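The authors deposited 1 table of raw counts, whole-number reads per gene for 7017 genes in 10 libraries. Per the submitters' processing notes, the tools were FastQC, TopHat2 2.1.1 and HTSeq. The genome build, annotation, strand setting and any filter are not given in the sources used here, so reads of overlapping or antisense genes cannot be told apart. Columns were joined to samples by name. Of the gene IDs, 6843 matched RefSeq names (ASM294v3) and 174 did not, 15 of them among the 4983 genes compared. Counts were scaled with TMM factors from 10 libraries (edgeR 4.0.16, R 4.3.3), 0.983 for treated WT and 0.919 for treated STY, and the ratio was checked on simulated counts. Alternatives used DESeq2 1.42.0 size factors, other filters, prior counts and thresholds. Columns of no sample were 0.

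The text names sty1 and atf1, the 12 lowest and 12 highest ratios, the 12 largest differences from the untreated ratio each way, and up to 4 of the largest ratios per list, fewer where a list is given by its counts and more in the kinase and factor lists. Other list members are given as examples chosen after their values were seen. The members and 29 lists were chosen with earlier results of these data known. Lists share members, such as ctt1, srk1 and pyp2, so their counts are not independent of each other. Of 367 list names, lhs1, gpp1, nop7 and vtc1 were not matched. The values of a further list member are not reported here. Promoter motifs were read in RefSeq windows of 300 bases. With 1 library a side no p-value was computed.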

Additional observations from a re-analysis of the deposited data

Results flagged for a closer look

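In 16 genes STY was at least 2-fold from WT in one direction before H2O2 and at least 2-fold in the other after it, each with a counting interval that excluded equal levels. Every strain and treatment has 1 library, so these differences were not tested. The value given is the treated minus the untreated log2 ratio, STY over WT.

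In 9 genes STY was higher before H2O2 and lower after. Pap1-linked genes lead them. The dehydrogenase gene SPCC663.08c went from a ratio of 3.92 to -2.09, a difference of -6.01, osr1 from 2.56 to -3.31 (-5.87), gst2 from 3.06 to -1.13 (-4.19), and bfr1 from 1.77 to -1.97 (-3.74). The peroxiredoxin gene tpx1 went from 1.37 to -1.53 (-2.90) and the noncoding RNA SPNCRNA.1258, which overlaps it on the same strand, from 1.54 to -2.47 (-4.01). The difference was -4.91 for SPNCRNA.1611, which overlaps the histone gene hhf3, -3.60 for SPBC36.01c, annotated as a spermidine transporter, and -2.57 for cld1, for a cardiolipin-specific phospholipase. SPNCRNA.1611 passed the filter on low values through its level in treated WT, so nothing is read from its low treated ratio.

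In the other 7 genes STY was lower before and higher after. They include genes of transport and amino acid metabolism. The sulfate transporter gene sul2 read 328.5 and 12.3 CPM in WT before and after H2O2 and 90.4 and 68.0 in STY, and its ratio went from -1.86 to 2.46, a difference of 4.32. The D-glutamate cyclase gene dgc1, which overlaps hsp3102, went from -2.44 to 2.13 (4.57), and SPBPB10D8.01, annotated as a cysteine transporter, from -2.13 to 1.09 (3.22). With total counts the treated ratio of SPBPB10D8.01 was 0.99, under 2-fold. The difference was 2.58 for SPBC460.04c, 3.45 for SPBPB2B2.08, 3.28 for SPNCRNA.846 and 4.90 for SPNCRNA.1353.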

How the results depend on the processing

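No paired analysis was possible because each strain and treatment has 1 library, and for the same reason no replicate could be left out. Lower, higher and treated-minus-untreated counts stood at 976, 558 and 1197. A mean of at least 50 CPM left 604 lower genes and 737 treated-minus-untreated differences. A 4-fold threshold left 357 lower, 104 higher and 326 differences. The stress list median of -3.46 became -3.56 with total counts, -3.07 with no filter and -3.28 after removal of length-bin medians, an alternative chosen after seeing the data. The chaperone median of 2.18 became 2.08 with total counts. The share of lower genes with TGACGT, 11.8%, was 20.2% at 4-fold and 0.991% for the full palindrome. Scaling with the treated pair's own factors gives no treated-minus-untreated count. Total counts shifted the median of all genes by -0.10 and the higher share of called genes from 36.4% to 29.6%. It was 41.0% with the pair's factors and 40.0% with DESeq2 size factors. Among single named genes 360 values stayed within their interval and 28 moved. Many of the 360 could not move, since settings that change only which genes are kept leave a gene's ratio as it was. Among list medians under the 3 scalings 57 stayed and 30 moved. No sign changed in either set, whereas removal of length-bin medians turned the signs of the G1-S (-0.20 to 0.05) and cell separation (-0.10 to 0.20) medians. Depth limits genes near 0 counts, such as shu1, to wide intervals.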

Other observations

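Of 275 long noncoding RNAs compared, 59 were lower and 57 higher in treated STY, beside 908 lower and 494 higher of 4678 coding genes. SPNCRNA.1094 read 26.0 and 19.9 CPM in WT before and after H2O2 and 43.8 and 396 in STY, a ratio of 4.31 (4.10 to 4.54), with treated STY the highest of these 4 libraries. Treated HA held still more, at 492 CPM beside 47.3 untreated. The other 2 strains labelled as sty1 deletion had no such rise. 10M read 68.8 CPM untreated and 94.1 treated, and 10D 112 and 73.0. nam3 read 34.4 and 1.71 CPM in WT and 47.2 and 38.9 in STY, a ratio of 4.40 (3.79 to 5.33), where treated WT alone was low. SPNCRNA.1278 had the same layout at 4.91 (4.17 to 6.25). SPNCRNA.1190 read 4.61 and 0.641 CPM in WT and 27.7 and 30.6 in STY, a ratio of 5.29 (4.44 to 7.04) beside 2.55 before H2O2. SPNCRNA.1673 and SPNCRNA.1653, which overlap coding genes, had a difference of treated minus untreated ratio of 4.84 and 4.50, and treated STY was the highest of the 4 libraries for both. At the other end SPNCRNA.1280, which overlaps vma8 and yme1, was at -7.38.

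Of 13 copies of the Tf2 retrotransposon, 2 passed the filter on low values, which the high level in treated WT helped them to pass, so nothing is read from their shared direction. Tf2-7 read 9.88 and 118 CPM in WT before and after H2O2 and 6.40 and 6.75 in STY, a ratio of -4.10 (-4.53 to -3.76). Tf2-11 was at -4.12 (-4.70 to -3.69). Before H2O2 their median was -0.18 and 0 were called. The copies share near-identical sequence and several had 0 counts, so their separate values are uncertain. Sterol genes held 0 lower and 3 higher of 16, and erg1, for squalene epoxidase, was highest at 2.42 and also higher before H2O2 at 1.40. Flocculin genes held 3 lower and 2 higher of 8. Beside these small counts, 19.6% of all genes compared were lower and 11.2% higher.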
